A study of Mus musculus with 12 samples.

Results

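Homeobox, Sox, forkhead, T-box, Twist and Runx transcription factors outside the Hox clusters were followed in mouse dermal papilla (DP) cells with and without the Fgf receptors Fgfr1 and Fgfr2. The members were all genes whose symbol joins a number to the stem Sox-, Tbx-, Pax-, Msx-, Dlx-, Six-, Irx-, Lhx-, Twist-, Prrx-, Meis-, Pbx- or Runx-, or to Fox- and a letter from a to s, apart from 4 that were left out. This gave 77 of the 14986 genes that are in the tables of both days, in 14 families of which Fox (26 genes) and Sox (11 genes) are the largest. A further 11 matching genes are in the table of 1 day only.

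RNA was sequenced from DP cells of control mice and of double mutant mice (dMF1/2) on postnatal day 14 (P14) and on P16, with 3 mice in each of the 4 groups. The sample labels call the controls wild type. The study's methods give the dMF1/2 genotype as Cor-cre/+; Fgfr1Flox/Flox; Fgfr2Flox/Flox, and 2 control genotypes, Cor-cre/+; Fgfr1Flox/+; Fgfr2Flox/+ or floxed mice without Cre, without saying which was sequenced. Corin-cre is active in the DP, and the cells were sorted for a YFP reporter that Cre switches on from the ROSA26 locus, so a sorted control cell would itself carry Cre. All 12 libraries are labelled anagen, the growth phase of the hair follicle.

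The DP is the cluster of mesenchymal cells at the base of the hair follicle that signals to the surrounding epithelium. Transcription factors of these families specify the dermis and its appendages in the embryo and are retained in adult fibroblasts, where a few of them serve as markers of where a cell came from. Several act in pairs or complexes: Pbx and Meis proteins bind DNA together, Twist proteins pair with E proteins, Runx proteins bind with Cbfb, sine oculis homeobox (Six-family) proteins act with Eya proteins, and Lhx proteins act with Ldb and Lmo proteins.

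The libraries held 19302358 to 29860750 reads. Fgfr1 had 7745 to 9981 normalised reads in P14 controls and 6391 to 7405 in P14 dMF1/2 mice, and 8512 to 12517 against 6226 to 8015 at P16, whereas Fgfr2 overlapped on both days (4483 to 4940 against 3669 to 5190, and 4763 to 5356 against 4113 to 5575). Counts over a whole gene include the exons that a floxed allele keeps, so they do not check the labels. All 15 DP markers looked up were detected in every group, and the keratinocyte markers summed to 239 to 837 jointly scaled reads per library beside 47108 to 205698 for the DP markers. The P14 libraries numbered 1 stood apart in both genotypes, with fibroblast markers, nearly all Col1a1, at 1353123 and 1862663 jointly scaled reads where the other 4 P14 libraries held 4285811 to 4390943. Their DP marker sums were the highest, 194143 and 205698, where the other 4 P14 libraries held 123304 to 163979.

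Twist1, Prrx1 and Tbx15, which mark the mesenchyme of the embryo and the skin, had the highest levels per length. Over the 12 libraries Twist1 averaged 1993 reads per kb of exon, Prrx1 966 and Tbx15 816. Sox4 (577 reads per kb), the forkhead factor Foxo3 (574), Prrx2 (500), Irx1 (479), Irx2 (368) and Twist2 (338) followed. The 5 highest members made up 46.9% of the summed level per kb of all 77, and 31 members lay above the median of all genes, 66.6 reads per kb. At the other end 12 members averaged under 10 jointly scaled reads and 20 between 10 and 100.

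**Figure D1:**
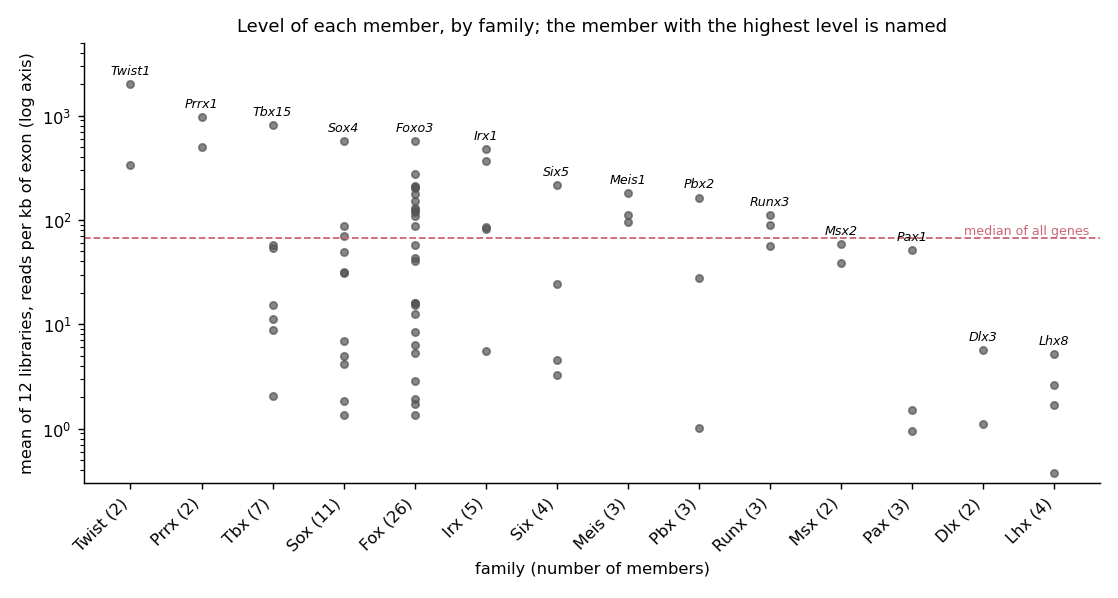
Each point is 1 member, placed by family on the horizontal axis and by its mean over the 12 libraries, in jointly scaled reads per kb of exon, on a log axis; the dashed line is the median of all genes, 66.6. Families are ordered by their highest member, from Twist1 at 1993 to Lhx8 at 5.22 reads per kb.

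In the other families the highest members were Six5 (215 reads per kb), Meis1 (183), Pbx2 (164), Runx3 (112), Msx2 (58.7), Pax1 (51.9), Dlx3 (5.72) and Lhx8 (5.22). The Dlx and Lhx families were therefore close to the floor of detection, and Lhx4, which had 0 to 5.10 jointly scaled reads in a library, was the lowest member at 0.38 reads per kb. Some members hardly varied and others varied widely. The highest of the 12 libraries exceeded the lowest 1.29-fold for Foxd1, 1.31-fold for Prrx1, 1.35-fold for Tbx15, 1.46-fold for Meis2 and 1.49-fold for Meis1, whereas the span was 64.9-fold for Pax1, 4.66-fold for Runx1 and 3.70-fold for Sox12. Runx1 is among the 14 factors listed below as regulators of the dermis, as are Twist1 and Prrx2, which differed between genotypes at P16.

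The promoters of Sox4, Sox12 and Twist1 are shown because these genes differed between genotypes, Sox4 and Sox12 in opposite directions, and because their RefSeq starts lie 14, 17 and 0 bases from the gene ends in the deposited tables. Each line gives the 250 bases before the RefSeq start in GRCm38.p6, 5′ to 3′ on the strand of the gene, with matches to CCAAT or its complement ATTGG in capitals. The windows are chr13:28953700-28953949 (minus strand), chr2:152398047-152398296 (minus strand) and chr12:33957421-33957670 (plus strand).
Sox4: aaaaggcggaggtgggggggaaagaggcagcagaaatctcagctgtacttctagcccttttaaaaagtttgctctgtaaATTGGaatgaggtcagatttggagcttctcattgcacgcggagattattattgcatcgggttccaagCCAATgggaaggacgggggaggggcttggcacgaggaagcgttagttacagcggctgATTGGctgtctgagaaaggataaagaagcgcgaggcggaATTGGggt
Sox12: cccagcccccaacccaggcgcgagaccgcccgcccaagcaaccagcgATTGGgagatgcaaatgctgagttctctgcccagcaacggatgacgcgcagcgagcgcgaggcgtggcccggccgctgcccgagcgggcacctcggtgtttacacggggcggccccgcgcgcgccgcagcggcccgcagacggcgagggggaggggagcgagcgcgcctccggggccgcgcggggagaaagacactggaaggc
Twist1: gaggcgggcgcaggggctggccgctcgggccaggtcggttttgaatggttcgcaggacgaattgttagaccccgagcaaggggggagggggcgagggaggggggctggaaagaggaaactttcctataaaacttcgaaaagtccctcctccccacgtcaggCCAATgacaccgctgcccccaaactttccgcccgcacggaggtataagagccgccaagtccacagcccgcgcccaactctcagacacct

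The Sox4 window held 4 such matches and the Sox12 and Twist1 windows 1 each. RefSeq had a window for 51 of the 77 members. For each of these 1 window was kept, the nearest to the 5′ end of the gene. The full set holds several windows for some genes, so the shares below are not like for like. CCAAT on either strand was found in 23 of the 51 (45.1%), and in 33.8% of all 32851 windows. TATAAA was in the Twist1 window, in 5 of the 51 windows and in 12.4% of all. The members' windows held a median of 14 CpG dinucleotides, against 6 in all windows. The Sox12 window held 35, the Twist1 window 18 and the Sox4 window 11. These matches describe the letters only.

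At P16, 2 members were higher in dMF1/2 mice (Pax1 and Sox12) and 3 were lower (Sox4, Twist1 and Prrx2). That was 5 of the 66 members that passed the filter on low values, or 7.58%, beside 4.32% of all genes tested, of which 2.18% were higher and 2.14% lower (limma on log2 of the normalised reads plus 1, Benjamini-Hochberg adjusted p under 0.05 over all genes, here termed called). The median log2 fold change of the members was −0.07 and that of all genes −0.0043, and the median size of the change was 0.26 against 0.15. Between genotypes 16 members did not overlap, or 24.2%, beside 24.5% of all genes. In GRCm38 the 5 genes lie at chr2:147361925-147393295 (Pax1), chr2:152393611-152398063 (Sox12), chr13:28948919-28953713 (Sox4), chr12:33957671-33959817 (Twist1) and chr2:30834972-30881251 (Prrx2). The p-values measure the spread between mice of a group. In sorted bulk samples, fewer cells of a type and less RNA per cell cannot be told apart.

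Sox4, a SoxC factor of mesenchymal progenitors, had 4243, 3439 and 3559 normalised reads in the P16 controls and 1993, 1618 and 2111 in the dMF1/2 mice. Every mutant lay below every control. The mean went from 3747 ± 434 (SD, n = 3) to 1907 ± 257 (SD, n = 3), a log2 fold change of −0.98 (SE 0.13, limma adjusted p = 0.00819). Sox12, the third SoxC gene, had 182, 213 and 215 normalised reads in controls and 348, 292 and 386 in dMF1/2 mice. All 3 mutants lay above all 3 controls, with a log2 fold change of 0.74 (SE 0.14, limma adjusted p = 0.0248). Sox11, the remaining SoxC gene, was 182, 206 and 290 in controls and 333, 243 and 438 in dMF1/2 mice, which overlapped (log2 fold change 0.56, SE 0.24, limma adjusted p = 0.255).

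Pax1, a paired-box factor of the sclerotome and thymus, had 9.60, 69.5 and 13.2 normalised reads in P16 controls and 154, 296 and 364 in dMF1/2 mice. The groups did not overlap, but control replicate 2 was several times the other 2 controls and the control values correspond to 11, 67 and 13 reads. The log2 fold change was 3.54 (SE 0.67, limma adjusted p = 0.0273), and it was 4.39 without control replicate 2 and ran from 3.02 to 3.91 without any other single library. Pbx2 and Pbx3, homeobox factors that bind DNA with Meis and Hox proteins, gave log2 fold changes of 0.27 and 0.20, and their partners Meis1 and Meis2 gave 0.13 and 0.11, none of which was called.

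Twist1, a basic helix-loop-helix factor that keeps mesenchyme undifferentiated, had 4901, 4067 and 4501 normalised reads in P16 controls and 3174, 2575 and 2703 in dMF1/2 mice. Each mutant lay below each control (log2 fold change −0.67, SE 0.11, limma adjusted p = 0.0169). Twist2 had 1313, 1041 and 1144 in controls and 1006, 1028 and 816 in mutants, also without overlap, but its log2 fold change of −0.30 was not called (limma adjusted p = 0.245). Prrx2, a paired-related homeobox factor of limb and skin mesenchyme, had 1098, 1067 and 1065 in controls and 821, 671 and 710 in dMF1/2 mice. The 3 controls lay close together and all exceeded the mutants (log2 fold change −0.56, SE 0.10, limma adjusted p = 0.0193). Its paralog Prrx1 had a log2 fold change of 0.13 (SE 0.10) with overlapping groups.

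**Figure D2:**
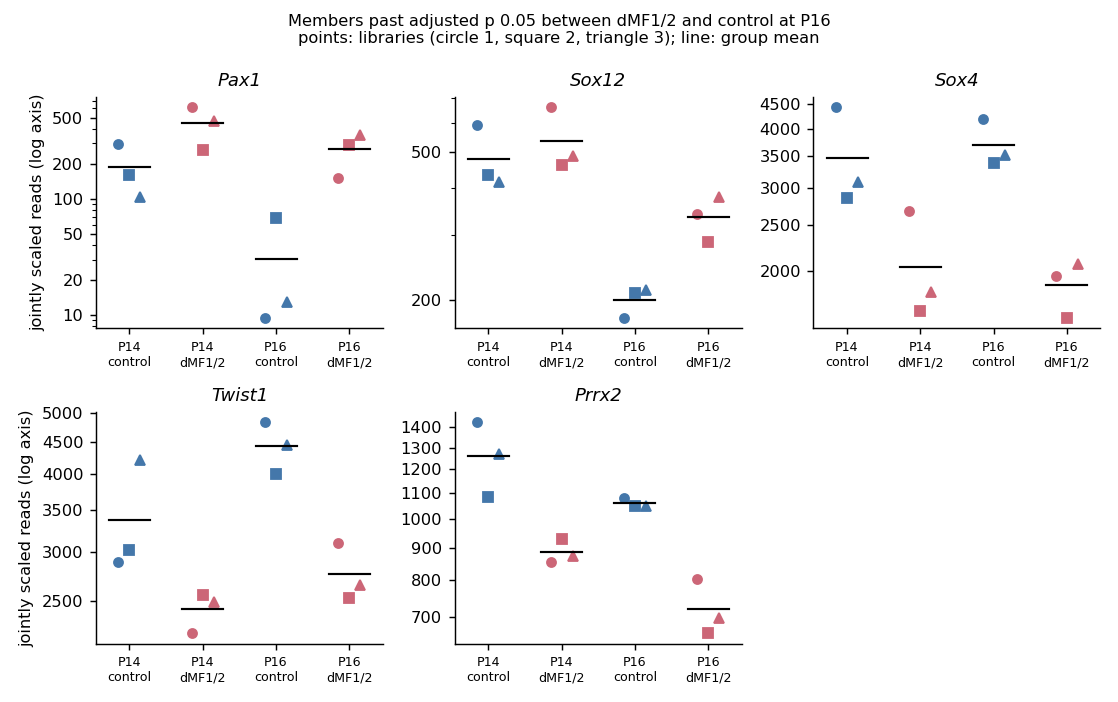
Jointly scaled reads (log axes, a separate range in each panel) of the 5 members called at P16, in each of the 12 libraries, by group; symbols mark the replicate number and lines the group mean. At P16 every dMF1/2 point of Pax1 and Sox12 lies above the control points and every dMF1/2 point of Sox4, Twist1 and Prrx2 lies below them.

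The 5 calls depended on the libraries to different degrees. Sox4 was called after leaving out any of the 6 P16 libraries (largest limma adjusted p 0.0347). It was the only call left without control replicate 3 or without dMF1/2 replicate 3. Calls over all genes fell from 582 to 184 and 149 in these fits. Without dMF1/2 replicate 2 the calls were Sox4 and Sox12 (306 over all genes). Without control replicate 1 Prrx2 and Sox12 were lost (399 over all genes), and without dMF1/2 replicate 1 Sox12 was lost (404). Without control replicate 2 all 5 stayed (684). No fold change turned. The DP markers moved with these calls: their sum was 47108 to 98868 jointly scaled reads in P16 controls and 117018 to 179780 in P16 dMF1/2 mice, and 7 of 15 were called (6 higher, 1 lower). Control replicate 1, with the lowest sum, also had the lowest Pax1 and Sox12 and the highest Sox4, Twist1 and Prrx2 among the controls. The summed pericyte markers were 22193 to 28896 in P16 controls and 10131 to 14446 in P16 dMF1/2 mice, with Cspg4 the only 1 of 5 called. Of the 5 adipocyte markers 2 were tested, and Plin1 was called (62.7 ± 23.2 normalised reads in controls and 331 ± 67.6 in mutants, SD, n = 3 each, log2 fold change 2.43, limma adjusted p = 0.00604). No marker of dermal sheath, fibroblasts, keratinocytes, melanocytes, Schwann cells, endothelium, leukocytes or skeletal muscle was called at P16. The part of these markers in the result was not tested.

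Libraries with the same number deviated together within a day. With that number as a block, 10 members were called at P16, beside 10.4% of all genes. The 5 additions were Sox11 (higher) and Runx1, Runx3, Sox9 and Foxf2 (lower). Runx1 had 2037, 1384 and 2011 normalised reads in P16 controls and 1421, 784 and 1480 in dMF1/2 mice, and Runx3 had 702, 474 and 703 against 455, 300 and 466. For both genes replicate 2 was the lowest of each genotype and each mutant lay below the control of the same number. The log2 fold change was −0.59 for Runx1 (limma adjusted p = 0.256 without and 0.00954 with the block) and −0.63 for Runx3 (0.153 and 0.0047). Runx2, the osteoblast regulator, gave −0.06.

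At P14 no member was called of the 65 tested, beside 0.0525% of all genes. At an unadjusted limma p under 0.05 there were 8 members, or 12.3%, beside 7.32% of all genes. edgeR called none. DESeq2 called Prrx2 (1.55% of all genes), and limma with the replicate block called Sox4 (1.68% of all genes). The median log2 fold change was 0.0054 in the members and 0.0048 in all genes. The 5 members called at P16 had P14 differences of the same sign.

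Sox4 had 4384, 2809 and 3049 normalised reads in P14 controls and 2643, 1630 and 1786 in dMF1/2 mice. The groups did not overlap, as at P16, and the library numbered 1 was the highest in each (log2 fold change −0.76, limma adjusted p = 0.453, or 0.00365 with the block). Prrx2 had 1407, 1068 and 1251 in controls and 843, 922 and 865 in mutants, without overlap (log2 fold change −0.49, limma adjusted p = 0.295).

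Twist1 had 2852, 2971 and 4149 normalised reads in P14 controls and 2190, 2534 and 2473 in dMF1/2 mice, so that all mutants were lower (log2 fold change −0.45, limma adjusted p = 0.549). Pax1 had 295, 158 and 103 in P14 controls and 606, 259 and 461 in mutants, which overlapped (log2 fold change 1.30, limma adjusted p = 0.533). Sox12 had 584, 428 and 411 in P14 controls and 652, 457 and 485 in mutants, with a log2 fold change of 0.16. Taken without regard to library number, the genotypes of Sox12 overlapped at P14 and were apart at P16. For Pax1 and Sox12 each P14 mutant exceeded the control of the same number, but neither was called with the block.

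**Figure D3:**
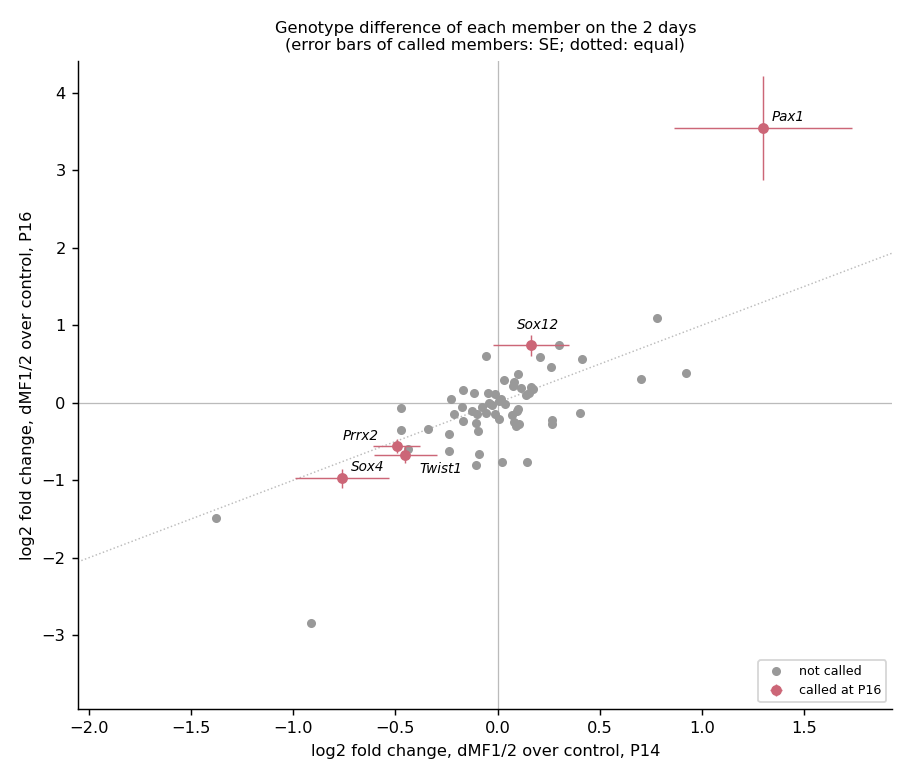
Log2 fold change of dMF1/2 over control for each member tested on both days, at P14 on the horizontal and at P16 on the vertical axis (scales differ); coloured points with SE bars are the 5 members called at P16. Pax1 stands at 1.30 and 3.54, and Sox12 moves from 0.16 to 0.74.

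Of the 64 members tested on both days, 5 had groups that did not overlap, in the same direction, at P14 and again at P16 in different mice, or 7.81%, beside 5.14% of all genes. These were Sox4, Twist1, Prrx2, Irx1 and Sox13, all lower in dMF1/2 mice. Irx1, an Iroquois homeobox factor, had 1304, 1334 and 1475 normalised reads in P14 controls and 1179, 977 and 1096 in P14 mutants. At P16 it had 1547, 1284 and 1481 in controls and 1231, 1146 and 1043 in mutants. The 2 log2 fold changes of Irx1 were −0.34 and −0.33, yet neither was called (limma adjusted p = 0.436 and 0.119). Its cluster neighbour Irx2 gave 0.02 at P16. Sox13, a SoxD factor, gave −0.47 and −0.35 (limma adjusted p = 0.637 and 0.115).

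Paralogs were also compared within each library, as the log2 ratio of their jointly scaled reads, each plus a pseudocount of 1. These pairs were chosen after the values were seen, and the smallest p that an exact permutation test of 3 against 3 can give is 0.1. The log2 ratio of Sox12 to Sox4 reads was −2.91, −2.71 and −2.89 in P14 controls and −2.02, −1.83 and −1.88 in P14 mutants. At P16 it was −4.54, −4.01 and −4.04 in controls and −2.51, −2.47 and −2.45 in mutants. The mutants were higher on both days, by 0.93 and by 1.72 (exact permutation p = 0.1 on each day). Sox11 to Sox4 also differed on both days, by 1.17 at P14 and 1.54 at P16, without overlap.

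The log2 ratio of Prrx1 to Prrx2 overlapped at P14 (difference 0.45) and did not at P16 (0.69), and Twist2 to Twist1 did likewise (0.54 and 0.38). In these 4 pairs the second gene is one that was lower in the mutants on both days, so a higher ratio in part restates its values and adds no independent evidence. No ratio is given for Pax1 to Pax9, because Pax9 had 0 reads in 1 of the P14 controls and at most 15 in any library.

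**Figure D4:**
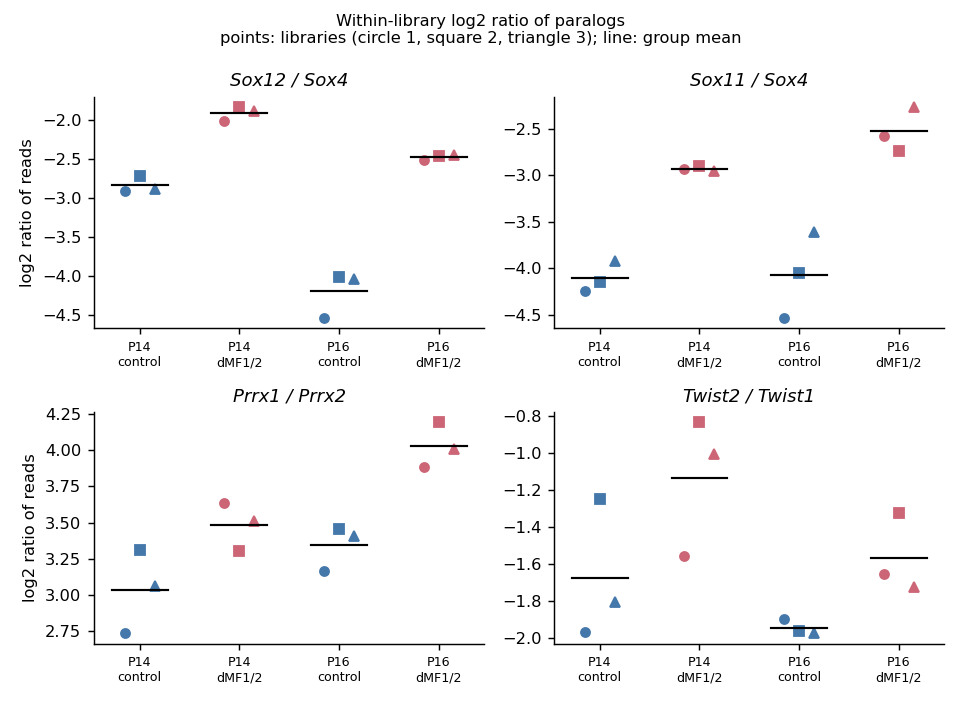
Log2 ratio of the first gene to the second, in jointly scaled reads plus 1, in each of the 12 libraries, by group (a separate range in each panel); symbols mark the replicate number and lines the group mean. In the Sox12 to Sox4 panel the P16 mutants lie between −2.51 and −2.45 and the P16 controls between −4.54 and −4.01.

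The remaining families showed smaller or noisier differences at P16, with 0 of 22 Fox, 0 of 5 Irx, 0 of 6 Tbx, 0 of 4 Six-family, 0 of 3 Lhx and 0 of 2 Msx members called by limma without the block. Fox log2 fold changes ran from −1.49 (Foxf2, with means of 26.4 and 9.48 normalised reads, limma adjusted p = 0.233, or 0.0482 with the block) to 0.46 (Foxd2). Foxo3 gave −0.22, Foxo1 −0.16, Foxp1 0.17, Foxd1 −0.11 and Foxf1 −0.66. Tbx15, which patterns the dorsal dermis and its pigment boundary, had 3025, 3157 and 2967 normalised reads in controls and 3268, 3537 and 3023 in mutants. The Tbx15 groups overlapped (log2 fold change 0.10, SE 0.09). Msx1, a homeobox factor induced by Bmp signals, had 91.7, 70.5 and 95.3 in controls and 102, 118 and 183 in mutants, without overlap but not called (log2 fold change 0.60, limma adjusted p = 0.217).

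Of the 14 factors listed as regulators of the dermis, 2 were called at P16 (Twist1 and Prrx2, both lower), or 14.3% beside 4.32% of all genes, and none at P14. Between days 2 were called in controls (14.3%, beside 14.5% of all genes) and 1 in mutants (7.14%, beside 5.8%), which was close to the share of all genes in both. The 14 were listed with earlier results of these data known, so their shares say nothing about dermal regulators in general.

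From P14 to P16 in control mice, Runx1, Foxn2 and Foxo3 rose, and Pax1, Six2, Sox12, Tbx5, Msx2 and Foxs1 fell. These were 9 of 65 members, or 13.8%, beside 14.5% of all genes (6.26% rose and 8.28% fell; limma over the 12 libraries rescaled together). The median log2 change was 0.07 in the members and 0.01 in all genes. Control values are shared by the comparisons between genotypes and between days, so the latter do not add independent evidence for Pax1 or Sox12.

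Sox12 went from 592, 434 and 416 jointly scaled reads in P14 controls to 179, 209 and 212 in P16 controls. The days did not overlap (log2 change −1.25, SE 0.17, limma adjusted p = 0.00191). In dMF1/2 mice it went from 662, 461 and 490 to 340, 287 and 379, again without overlap (−0.67, SE 0.17, limma adjusted p = 0.0437). Six2, a homeobox factor of nephron and craniofacial mesenchyme, went from 81.1, 84.8 and 49.4 to 25.8, 24.5 and 33.0 in controls. In mutants it went from 82.7, 74.3 and 76.3 to 37.0, 24.8 and 29.1. The days did not overlap in either genotype, with log2 changes of −1.31 and −1.35 (limma adjusted p = 0.00684 and 0.008).

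Pax1 went from 299, 160 and 105 jointly scaled reads in P14 controls to 9.47, 68.3 and 13.0 in P16 controls, without overlap (log2 change −2.99, SE 0.65, limma adjusted p = 0.0139, or −3.83 without P16 control replicate 2). In mutants it went from 615, 262 and 465 to 151, 291 and 357. These overlapped, with a log2 change of −0.75. Runx1, a regulator of blood and hair follicle stem cells, went from 750, 562 and 1011 to 2008, 1361 and 1986 in controls and from 639, 614 and 431 to 1389, 771 and 1452 in mutants. It rose without overlap in both (log2 change 1.22 and 1.07, limma adjusted p = 0.0168 and 0.0472).

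Smaller changes in controls were those of Tbx5 (log2 change −1.22, limma adjusted p = 0.0359), Msx2 (−0.87, 0.0207), Foxs1 (−0.70, 0.0414), Foxn2 (0.66, 0.0321) and Foxo3 (0.56, 0.0268). Tbx5 had 110, 72.9 and 66.2 jointly scaled reads in P14 controls and 33.6, 52.0 and 23.0 in P16 controls. Msx2 had 261, 248 and 185, then 104, 128 and 146. Foxo3, a forkhead factor restrained by insulin and growth factor signals, had 3487, 3091 and 4505, then 5382, 5512 and 5234. In controls the days did not overlap for any of these 5 genes.

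In dMF1/2 mice 3 of 65 members were called between days (4.62%, beside 5.8% of all genes, of which 1.83% rose and 3.97% fell): Runx1 rose, and Six2 and Sox12 fell. Six2 was called after leaving out any of the 6 libraries of either genotype, and Sox12 after leaving out any in controls and none in mutants. Without P14 control replicate 1, which stood apart, the control calls were Six2 and Sox12 only. Calls over all genes fell there from 1951 to 782. Without P14 control replicate 2, P16 control replicate 1 or P16 control replicate 3 there were 3 control calls each. In these fits 1044, 693 and 971 of all genes were called. Without P16 control replicate 1, 1 of the 3 was a new call, Six5. When each genotype was fitted by itself, 4 members were called in controls and 1, Six2, in dMF1/2 mice, while the calls over all genes fell from 1951 to 806 and from 778 to 322. In controls the DP marker sum fell from 132260 to 194143 jointly scaled reads at P14 to 47108 to 98868 at P16. There 9 of 15 DP markers were called (60.0%, beside 14.5% of all genes). In dMF1/2 mice the sums overlapped (123304 to 205698 at P14, 117018 to 179780 at P16), and 0 of 15 were called, beside 5.8%. The part of these markers in the result was not tested.

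**Figure D5:**
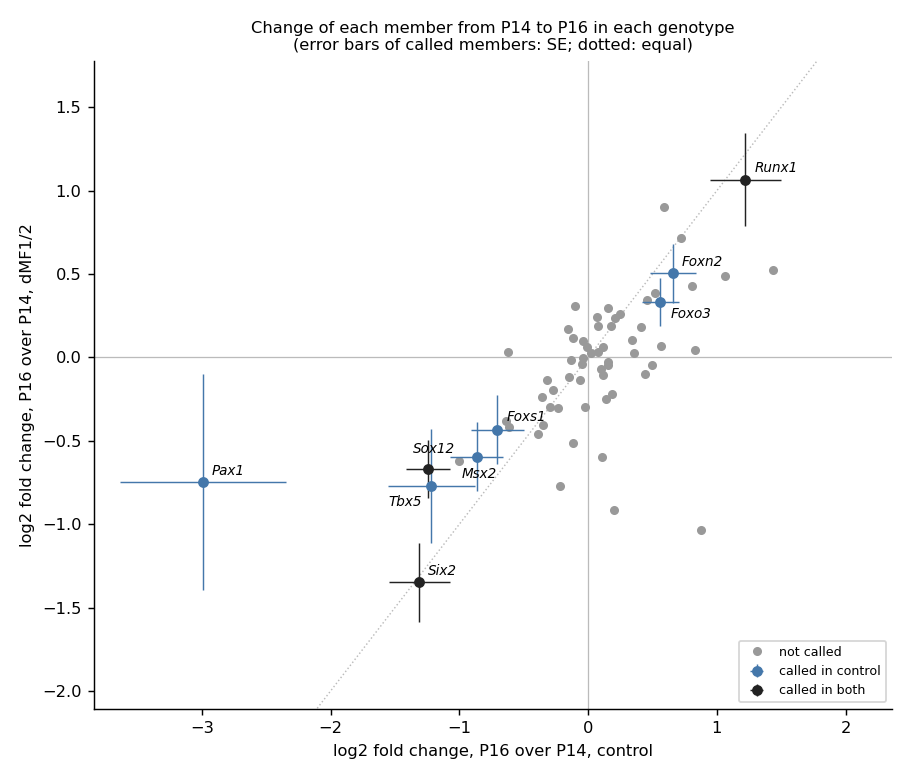
Log2 change from P14 to P16 of each member tested, in controls (horizontal axis) and in dMF1/2 mice (vertical axis), from 1 fit of the 12 libraries; labelled points with SE bars are called in controls or in both genotypes, and the dotted line marks equal change. Six2 and Runx1 lie near that line, and Pax1 stands at −2.99 and −0.75.

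Whether the change between days differed between genotypes was tested as an interaction. No member was called by limma, edgeR or DESeq2. Over all genes limma and edgeR called 0 and DESeq2 called 7, or 0.0522%. At an unadjusted limma p under 0.05 there were 2 members of 65, beside 4.83% of all genes. These were Pax1, with a difference of log2 changes of 2.24 (SE 0.92), and Sox12, with 0.58 (SE 0.24), each at a limma adjusted p of 1. The smaller changes of Pax1 and Sox12 in mutants were thus not shown to differ from those in controls.

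In both genotypes the P14 library numbered 1 lay below the other 2 libraries of its group for 11 of 65 members (16.9%, beside 21.9% of all genes) and above both for 18 (27.7%, beside 22.6%), shares not far from those of all genes. Irx3, Irx5, Irx6, Foxo6, Twist2 and Six4 were under 0.7 of the mean of the others in both genotypes, a set named after the values were seen. Irx3 had 110 normalised reads in control replicate 1 and 343 and 301 in the others, and 120 in dMF1/2 replicate 1 and 293 and 248 in the others. Twist2 had 729, 1248 and 1184 in P14 controls and 743, 1419 and 1229 in P14 mutants. For Irx3 and Twist2 the libraries numbered 1 of both genotypes lay below the other 4 P14 libraries.

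Among 23 tested cofactors of these families, 4 were called at P16 (17.4%), beside the 4.32% of all genes. The list was drawn up with earlier results of these data known, so its shares say nothing about cofactors in general. Lmo2, a bridging protein of LIM complexes, had 951 ± 151 normalised reads in controls and 132 ± 55.8 in mutants (SD, n = 3 each; log2 fold change −2.92, limma adjusted p = 0.00502). Cbfb, the subunit that Runx proteins need to bind DNA well, was 1644 ± 97.2 in controls and 1070 ± 91.9 in mutants (log2 fold change −0.62, limma adjusted p = 0.0125). Lmo1 (1.61) and Eya2 (1.27), a coactivator of the sine oculis homeobox proteins, were higher. In controls Lmo2 and Cbfb rose between days (1.51 and 0.62) and Eya2 and Ssbp4 fell (−1.08 and −0.70), which was 17.4% beside 14.5% of all genes, while in dMF1/2 mice only Ssbp4 was called (−0.56), or 4.35% beside 5.8%.

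Among 44 other developmental regulators tested at P16, 7 were called (15.9%), beside 4.32% of all genes. This list too was drawn up with earlier results known, so its shares say nothing about such regulators in general. Alx4 (log2 fold change 1.70), Hand2 (1.60), En1 (0.86), Ebf1 (0.85) and Zeb2 (0.47) were higher and Tfap2a (−2.76) and Tshz2 (−1.15) lower. Alx4, an aristaless-like homeobox factor of craniofacial and limb mesenchyme, had 4896 ± 1569 normalised reads in controls and 15540 ± 3180 in mutants (SD, n = 3 each, limma adjusted p = 0.0117). In controls 8 of these 44 (18.2%) fell from P14 to P16 and none rose, beside 8.28% and 6.26% of all genes, led by Hand2 (−2.43), Lmx1a (−1.77) and Alx4 (−1.53). In dMF1/2 mice none was called between days by limma, and none of 43 at P14 between genotypes.

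Several members known mainly from other cells were low. Sox10, a factor of melanocytes and glia, had 1.09 to 15.3 jointly scaled reads. The 8 melanocyte markers summed to 2625 to 7405 jointly scaled reads per library, of which Ednrb had 1736 to 6523 and Mitf 443 to 832, whereas the pigment enzymes Tyrp1 and Dct did not exceed 11.9. None of these markers was called between genotypes, and Mitf and Kit, or 2 of 5 tested, rose between days in controls (40.0%, beside 14.5% of all genes). Dlx3, a regulator of epidermis and hair differentiation, had 49.8, 9.33 and 37.5 normalised reads in P16 controls and 0, 6.53 and 6.35 in mutants. The groups did not overlap (log2 fold change −2.84, limma adjusted p = 0.134, DESeq2 adjusted p = 0.00574, with 8.33% of all genes called by DESeq2). Sox9, of the follicle epithelium, gave −0.81 (limma adjusted p = 0.24, or 0.037 with the block), while the summed keratinocyte markers were 239 to 816 in P16 controls and 483 to 697 in mutants. The endothelial factors Sox7 and Sox17 were highest in P16 control replicates 2 and 3 (55.0 and 60.8, and 18.7 and 20.3 normalised reads). The endothelial markers ranged from 715 to 1668 in P16 controls and from 841 to 1178 in P16 mutants. From P14 to P16 in controls 3 of 8 were called (37.5%, beside 14.5% of all genes). Of these Vwf and Emcn rose and Tek fell. Runx3, which is also a lymphocyte factor, had 295 to 748 jointly scaled reads. The 6 leukocyte markers found on both days summed to 184 to 449, led by Csf1r with 37.7 to 311, while Ptprc had 0 to 10.2, and none of the 4 tested was called. The part of these markers in the values of the members was not tested. Sox10 and Sox17 did not pass the filter on low values, and Dlx3, Sox9, Sox7 and Runx3 were not called by limma without the block, between genotypes or between days.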

How the data were processed

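DP cells were sorted by FACS for YFP, and ribosomal RNA was depleted before directional libraries were made from 12 mice. Per the labels and the study's methods, the authors used Trimmomatic for trimming, TopHat2 for alignment to mm10, HTSeq for counts per gene and DESeq2 for normalisation. The deposited values are a signal, the reads of a gene over the size factor of its library, in 1 table per day (15209 genes at P14, 15334 at P16). The tables also hold the authors' own log2 fold changes, test score and p-values, which were not used.

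All values (100%) were whole multiples of what 1 read is worth in the library, within a tolerance of 0.001, so the reads were recovered. Genotypes were compared within a day in the deposited scaling with limma 3.58.1 (R 4.3.3, mean-variance trend, log2 of the value plus a pseudocount of 1, genes with a mean of at least 10, Benjamini-Hochberg threshold 0.05). Changes between days and the interaction came from 1 fit of the 12 libraries, rescaled over 14986 shared genes by median of ratios, with 4 groups. Levels per kb used exon lengths of GENCODE M21. edgeR 4.0.16 and DESeq2 1.42.0 were run on the recovered reads as alternatives. At P16 they called 603 and 1121 genes, limma 582. A pseudocount shrinks the log2 fold change of low genes. For Pax1 at P16 limma nonetheless gave the larger value, 3.54, where DESeq2 gave 3.145 and edgeR 3.171. The fits were tested on simulated data.

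Deviations of same-numbered libraries from their group means correlated across genes at 0.586, 0.389 and 0.304 at P14 and 0.256, 0.293 and 0.311 at P16, so the number was tried as a block within a day. Of the genes that match the families, 4 are not reported here. Members and gene lists were chosen with earlier results of these data known. Values are given for members called between genotypes, the called members of largest change between days, the highest member of each family, and the dermal list; markers of the other cells are given with factors of those cells. The promoters are RefSeq's, and the exact permutation tests are two-sided. The other time points of the study were not analysed here. Depth limits members under 10 reads, which were not tested.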

Additional observations from a re-analysis of the deposited data

How the results depend on the processing

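The 5 members called between genotypes at P16 were called under 9 of 9 alternatives that kept all P16 libraries (all genes kept, a minimum of 10 reads per library, pseudocounts of 0.1 and 10, DESeq2, edgeR, TMM scaling, the replicate block and the joint fit), and no fold change of a called member reversed under any alternative run. The counts that moved by more than 1.5 times were as follows. At P14, DESeq2 called 1 member and the replicate block 1, where limma called 0. At P16 the replicate block called 10, and leaving out 1 library gave 1 to 5. Over all genes these fits called 1403 and 149 to 684, beside 582 in the main fit. From P14 to P16 in controls, leaving out 1 library gave 2 to 11 and the fit of the control libraries alone 4. The calls over all genes were 693 to 1945 and 806, beside 1951 in the main fit. From P14 to P16 in dMF1/2 mice, leaving out 1 library gave 1 to 2 and the fit of the dMF1/2 libraries alone 1. Here the calls over all genes were 257 to 678 and 322, beside 778. The fits without 1 library hold fewer samples, and where a group is left with 2 the spread is shared with the other groups.

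Between days the numbers did not pair the libraries (correlations −0.0545, −0.0621 and −0.130 in controls, 0.0292, 0.208 and −0.162 in dMF1/2 mice). With the replicate block over the 12 libraries, 10 members of 65 were called in controls (Foxo1 was added), beside 16.7% of all genes, and 3 in dMF1/2 mice, beside 7.04%, and the interaction called 0. The block changed no other member's call than those given above and in the report. Of the single members called, 60 values of the alternatives were no longer past the threshold, all from leaving out a library or fitting 1 genotype alone. Depth limits the 12 members with a mean under 10 reads, and with 3 mice a group the exact test cannot go below 0.1.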

Other observations

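Of the 11 matching genes that are in the table of 1 day only, 6 are in the P14 table (Dlx2, Foxn1, Foxq1, Lhx9, Pax3 and Sox30) and 5 in the P16 table (Dlx5, Foxd3, Sox1, Tbx20 and Tbx21). Each had 13 to 31 reads over the 6 libraries of its day. Foxn1, the factor of the nude phenotype and of hair differentiation, had the most, 31 reads, with 6.52, 5.36 and 1.95 normalised reads in P14 controls and 7.56, 6.40 and 2.22 in P14 dMF1/2 mice. Dlx5 had 6.98, 4.15 and 3.04 in P16 controls and 0, 0 and 1.06 in P16 dMF1/2 mice.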
